A study of Mus musculus with 8 samples.

Results

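The genes described here encode subunits of the mitochondrial respiratory chain and of ATP synthase. A given list of 47 gene symbols was looked up in a table of 56748 genes: 34 of the 47 lie in the nuclear genome and 13, whose symbols begin with mt-, in the mitochondrial genome. All 47 were found, and all 47 were among the 16780 genes that passed the filter on low counts and were tested. The list was not selected by a measured value of these libraries, but it was chosen with earlier results of these data known.

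RNA was sequenced from cells that anti-F4/80 magnetic beads retained from inguinal fat pads of wild-type (WT) female mice, whose age the labels do not give. The 4 Aldara libraries came from mice treated on shaved dorsal skin with about 62.5 mg of Aldara, a cream with 5% imiquimod, which activates Toll-like receptor 7. The 4 Vehicle libraries came from mice given an equal volume of Boots Aqueous Cream/10% Vaseline Lanette Cream as control, so imiquimod and the other constituents of Aldara cannot be told apart. Both creams were applied on 3 days in a row, and the mice were killed 24 h later. Cells from 6 fat pads, about 30000, were pooled for each library, and only preparations with over 90% F4/80+CD64+ cells by flow cytometry were used. The labels do not say which animals contributed to which pool, so p-values measure the spread between pools. Total counts lay between 21874780 and 34471508 for the Vehicle libraries, and between 19537607 and 24340674 for Aldara.

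Complexes I and II pass electrons from NADH and succinate to ubiquinone, complex III passes them to cytochrome c, and complex IV passes them to oxygen. Complexes I, III and IV pump protons out of the matrix, and ATP synthase uses the returning protons to make ATP. Complex II is built from nuclear genes alone, whereas the other complexes join nuclear subunits, made in the cytosol and imported, with subunits made inside the organelle from mitochondrial DNA. In macrophages, activation through Toll-like receptors is known to alter the use of this chain.

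Mitochondrial DNA has been copied into nuclear chromosomes during evolution, and some mitochondrial genes overlap, which bears on what a count of reads can resolve. To show this, 120 bases of mt-Nd3, a membrane subunit of complex I (chrM:9459-9578, plus strand, GRCm38), stand beside the matching stretch of Gm28438, its annotated nuclear copy (chr1:24613000-24613119, minus strand), with the base that differs in capitals. The third sequence is all of mt-Atp8, a small subunit of ATP synthase (chrM:7766-7969, plus strand), with the 43 bases it shares with mt-Atp6 in capitals.
mt-Nd3: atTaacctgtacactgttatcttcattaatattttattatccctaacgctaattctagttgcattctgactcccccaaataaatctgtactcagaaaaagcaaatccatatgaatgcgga
Gm28438: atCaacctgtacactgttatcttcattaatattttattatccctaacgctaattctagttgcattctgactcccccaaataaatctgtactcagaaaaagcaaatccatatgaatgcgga
mt-Atp8: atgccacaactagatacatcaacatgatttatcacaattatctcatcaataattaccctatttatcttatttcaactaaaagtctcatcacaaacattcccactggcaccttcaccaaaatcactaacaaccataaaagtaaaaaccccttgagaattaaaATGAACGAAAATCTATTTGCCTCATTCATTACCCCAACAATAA

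Many nuclear respiratory genes are known targets of the transcription factors NRF1, GABPA and YY1. RefSeq (GRCm38.p6) promoters of 300 bases were found for 24 of the 34 nuclear members and searched on both strands for 1 core of each, motifs chosen after the counts had been seen, none of which contains another. The NRF1 core was present in 6 of 24 members (25.0%) and in 5.19% of the 27025 genes with a promoter. The GABPA core CCGGAAGT was in 2 members (8.33%) against 4.31% of genes, and the YY1 core AAGATGGCG in 2 members (8.33%) against 1.64%. Promoters of a complex II and a complex IV gene are shown, both on the minus strand (Sdha at chr13:74350191-74350490, Cox6a1 at chr5:115348909-115349208), with matches of the NRF1 core in capitals.
Sdha: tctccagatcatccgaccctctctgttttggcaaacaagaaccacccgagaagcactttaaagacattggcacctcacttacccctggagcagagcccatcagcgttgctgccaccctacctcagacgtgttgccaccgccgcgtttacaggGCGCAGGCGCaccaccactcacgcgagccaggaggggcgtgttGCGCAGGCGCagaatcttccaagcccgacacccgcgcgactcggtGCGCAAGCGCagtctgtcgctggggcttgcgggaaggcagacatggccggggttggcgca
Cox6a1: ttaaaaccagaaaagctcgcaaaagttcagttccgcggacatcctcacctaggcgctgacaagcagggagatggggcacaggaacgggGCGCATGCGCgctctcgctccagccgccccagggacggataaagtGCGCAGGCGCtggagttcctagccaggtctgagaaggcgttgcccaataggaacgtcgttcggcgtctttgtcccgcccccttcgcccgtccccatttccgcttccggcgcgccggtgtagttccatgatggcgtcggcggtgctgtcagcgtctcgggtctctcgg

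The cell type given by the labels was checked first. All 15 macrophage markers, among them the F4/80 gene Adgre1, had counts in every library, and their summed level was 1612 to 3423 CPM (counts scaled to the size of the library) in Vehicle and 3819 to 10257 CPM in Aldara libraries. By edgeR's quasi-likelihood test, 8 of the 15 rose and 0 fell. Beside these and the other markers here, 6.98% of all genes rose and 3.86% fell. The number of macrophage markers that rose was 13 with the replicate number as a block and by DESeq2, where 1546 and 1532 of all genes rose. It was 3 without Aldara replicate 4, 4 without Aldara replicate 3 or Vehicle replicate 1, 2 or 4, and 13 without Aldara replicate 1. Luminal epithelial markers such as Krt8 and Epcam were more abundant, with summed levels of 15729 to 20952 CPM in Vehicle and 14107 to 18029 CPM in Aldara libraries and 1 of 12 fallen, although flow cytometry had selected F4/80+CD64+ preparations. Fibroblast markers summed to 210 to 574 CPM in Vehicle and 67.8 to 141 CPM in Aldara libraries, and 6 of 7 fell, or 2 without Aldara replicate 2 and 3 without Vehicle replicate 2 or any other 1 Aldara library. Skeletal muscle markers summed to 10.2 to 17.2 CPM in Vehicle and 5.19 to 9.26 CPM in Aldara libraries, with 1 of 7 tested fallen and a median log2 fold change of -0.96. Neutrophil markers summed to 29.9 to 51.2 CPM in Vehicle and 60.8 to 160 CPM in Aldara libraries, and B cell markers to 0.411 to 0.996 CPM and 3.8 to 9.1 CPM, and the 2 and 1 of them that were tested rose. White adipocyte markers summed to 232 to 275 CPM in Vehicle and 164 to 277 CPM in Aldara libraries. Of these 8 markers, 6 had a positive and 2 a negative log2 fold change. Among them 2 rose and 0 fell, and 1 fell with the replicate number as a block. Of the myoepithelial, endothelial, T cell and brown adipocyte markers 0 passed. The values of the respiratory genes are therefore those of the whole preparation, in which fewer cells of a type and less RNA per cell cannot be told apart. The part of these markers in the results was not tested.

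Between Vehicle and Aldara, respiratory chain transcripts were lower in Aldara: 11 of the 47 genes fell and 0 rose. Among all genes tested, 3.86% fell and 6.98% rose (edgeR quasi-likelihood test, Benjamini-Hochberg adjusted p under 0.05). The log2 fold change, Aldara minus Vehicle, was below 0 for 46 of the 47 genes and for 49.1% of all genes, and its median was -0.28 over the 47 genes and 0.01 over all genes. Mitochondrially encoded genes had a median of -0.58, with 7 of 13 fallen, and nuclear genes a median of -0.27, with 4 of 34 fallen. The groups did not overlap, with every Aldara library below every Vehicle library, for 13 of the 47 genes and for 7.79% of all genes. The reverse held for 0 of the 47 and for 9.97% of all genes.

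The number of genes past the threshold depended on single libraries. It was 1 without Aldara replicate 3, 3 without Aldara replicate 2 or Vehicle replicate 1, 4 without Vehicle replicate 3 (where 3.9% of all genes fell) or 4, 6 without Aldara replicate 1, 7 without Aldara replicate 4 and 9 without Vehicle replicate 2. Over the same 8 fits, 323 to 664 of all genes fell, against 647 with all libraries. The medians moved less, from -0.33 to -0.20 for nuclear and from -0.70 to -0.49 for mitochondrially encoded genes over all alternatives run. With the replicate number as a block, 18 of the 47 genes fell, beside 6.14% of all genes. DESeq2 gave 16 (7.11% of all genes), edgeR with upper-quartile factors 15 (5.9%), edgeR with the size factors of DESeq2 11 (4.15%) and limma voom 9 (3.29%).

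**Figure D1:**
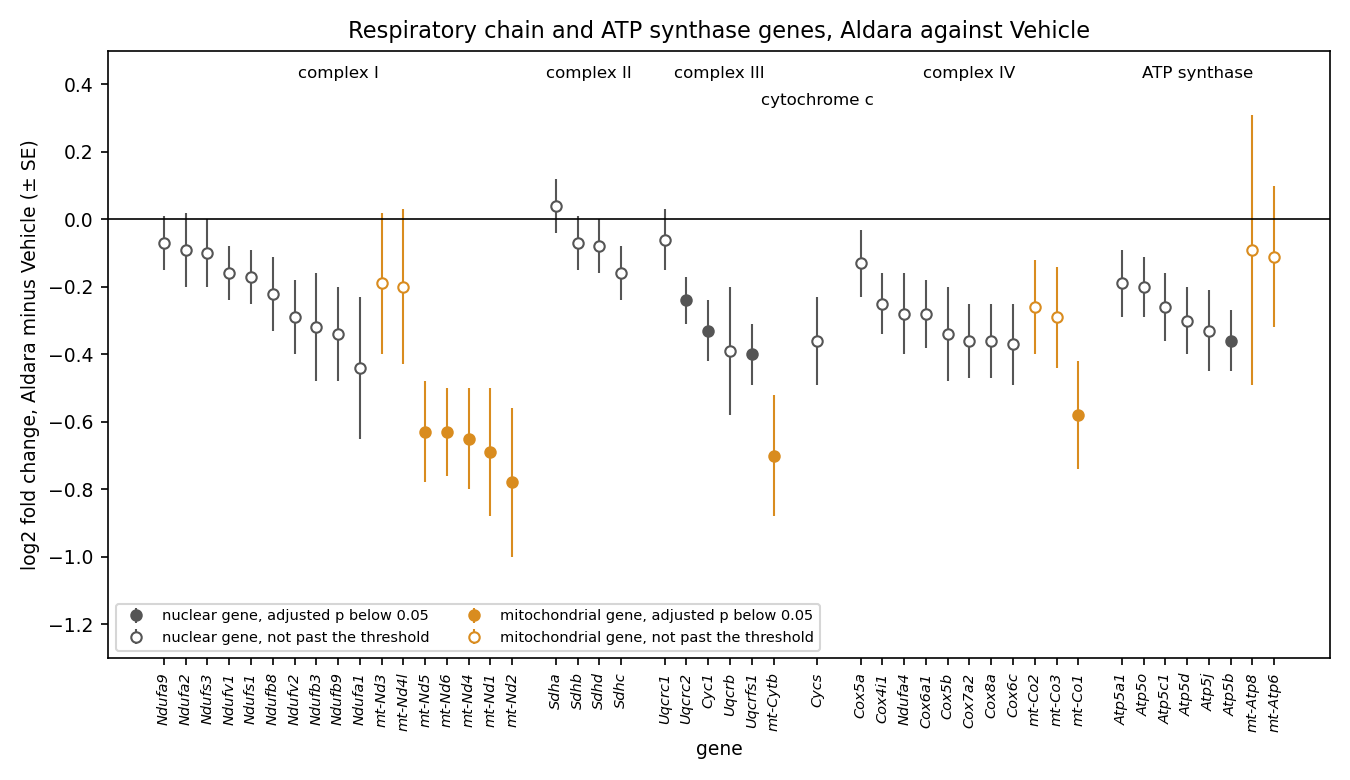
Log2 fold change, Aldara minus Vehicle, of each of the 47 genes with its standard error (SE), grouped by complex; filled points passed the threshold. Nuclear genes run from -0.44 to 0.04, and the 7 mitochondrial genes past the threshold lie between -0.78 and -0.58.

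Taken by share of all counts, the 13 mitochondrial genes gave 1.51%, 1.18%, 2.06% and 1.59% in Vehicle replicates 1 to 4. They gave 0.965%, 1.04%, 0.928% and 1.16% in Aldara replicates 1 to 4. By this share every Aldara library was below every Vehicle library. Aldara replicate 4 and Vehicle replicate 2 were close, with 95% Wilson intervals of 1.155% to 1.164% and 1.179% to 1.188% that cover counting error only. In summed CPM of the 13 genes the groups overlapped, with 12058 in Aldara replicate 4 and 11830 in Vehicle replicate 2. The group means of the share were 1.59 ± 0.362% and 1.02 ± 0.102% (SD, n = 4 each). The 34 nuclear genes gave 0.482 ± 0.0303% of counts in Vehicle and 0.409 ± 0.021% in Aldara (SD, n = 4 each), and by this share too the groups did not overlap. The ratio of mitochondrial to nuclear counts was 3.07, 2.59, 3.96 and 3.48 in Vehicle and 2.24, 2.62, 2.2 and 2.99 in Aldara libraries, so that on this ratio the groups overlapped.

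**Figure D2:**
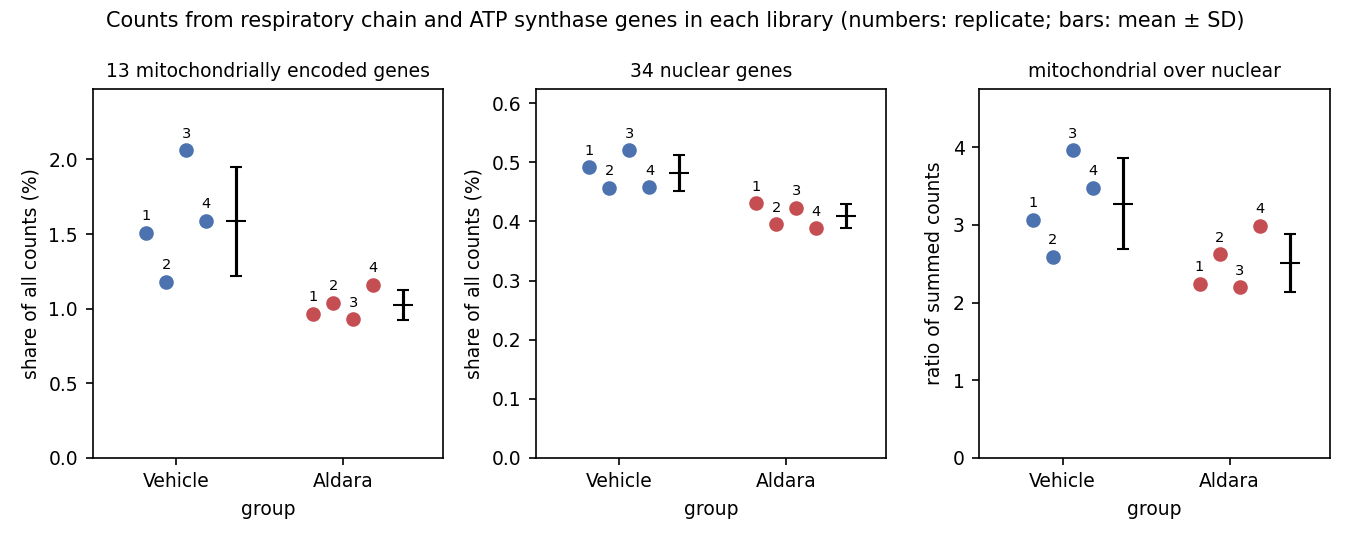
Share of all counts from the 13 mitochondrial genes (left) and the 34 nuclear genes (middle), and the ratio of both (right), by library; numbers are replicates and bars show mean ± SD. Both shares are lower in every Aldara library than in any Vehicle library, whereas the ratios overlap. In summed CPM, not drawn, the mitochondrial genes overlap too (11830 in Vehicle replicate 2, 12058 in Aldara replicate 4).

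Complex I takes electrons from NADH, and its members here are 10 nuclear and 7 mitochondrial genes. None of the nuclear genes passed the threshold, although all 10 had a negative log2 fold change, with a median of -0.19 and 2 at an unadjusted p under 0.05, which 11.7% of all genes reached in this direction. Ndufv2, a subunit with an iron-sulfur cluster, had the smallest p of them. It was at 67, 58.4, 74.9 and 53.3 CPM in the Vehicle libraries and at 50.7, 50.7, 51.8 and 54.8 CPM in those of Aldara, with Aldara replicate 4 above the lowest Vehicle library (log2 fold change -0.29, SE 0.11, adjusted p = 0.111). Ndufa2, an accessory subunit with the highest level per length of the nuclear complex I members, averaged 81.1 CPM per kilobase of exon in Vehicle and 76 in Aldara libraries (log2 fold change -0.09, SE 0.11, adjusted p = 0.641). The other 8 nuclear genes of complex I ranged from -0.44 (Ndufa1) to -0.07 (Ndufa9) in log2 fold change, and from -0.26 to -0.01 without Vehicle replicate 3.

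The mitochondrial genes of complex I encode its membrane core, and 5 of the 7 fell, beside 3.86% of all genes. When 1 library was left out, 1 to 5 of the 7 fell. mt-Nd6 (chrM:13552-14070, minus strand) is the only protein-coding gene on its strand of mitochondrial DNA. Its level was 364, 279, 417 and 371 CPM in the Vehicle libraries and at 218, 236, 213 and 256 CPM in those of Aldara. The groups did not overlap, and mt-Nd6 fell by 35.5% (log2 fold change -0.63, SE 0.13, adjusted p = 0.0106). Among the 11 genes that fell, mt-Nd6 was the only one to stay past the threshold whichever library was left out (highest adjusted p = 0.0371). It overlaps mt-Nd5 by 14 bases on the opposite strand, and the library kit does not mark strand, so reads of the opposite strand cannot be told apart from its own.

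mt-Nd5 (chrM:11742-13565, plus strand) was at 1493, 1104, 1547 and 1452 CPM in the Vehicle libraries and at 799, 945, 776 and 1089 CPM in those of Aldara. The highest Aldara value lay just under the lowest Vehicle value, and mt-Nd5 fell by 35.5% (log2 fold change -0.63, SE 0.15, adjusted p = 0.0204). mt-Nd4 (chrM:10167-11544, plus strand), another proton-pumping subunit, was at 1297, 1056, 1782 and 1446 CPM in the Vehicle libraries and at 863, 883, 838 and 979 CPM in those of Aldara. These groups did not overlap either (log2 fold change -0.65, SE 0.15, adjusted p = 0.0205). Without Aldara replicate 3 or Vehicle replicate 4 neither gene passed, nor did mt-Nd5 without Vehicle replicate 1 or mt-Nd4 without Aldara replicate 2, and the highest adjusted p was 0.0669 for mt-Nd5 and 0.0653 for mt-Nd4.

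mt-Nd2 (chrM:3914-4951, plus strand) had the most negative log2 fold change of the 47 genes. It was at 1267, 858, 1935 and 1168 CPM in the Vehicle libraries and at 718, 723, 685 and 915 CPM in those of Aldara, where Vehicle replicate 2 lay below Aldara replicate 4. It fell by 41.8% (log2 fold change -0.78, SE 0.22, adjusted p = 0.0459), and with the replicate block it did not pass (adjusted p = 0.0528). Nor did it pass by limma voom (adjusted p = 0.0558) or without the filter on low counts. Of the 8 fits without 1 library, only that without Vehicle replicate 2 kept mt-Nd2 (highest adjusted p = 0.122). mt-Nd1 (chrM:2751-3707, plus strand), which lies next to the ubiquinone site, was at 1871, 1274, 2531 and 1680 CPM in the Vehicle libraries and at 1111, 1061, 1047 and 1343 CPM in those of Aldara. Vehicle replicate 2 again lay below Aldara replicate 4 (log2 fold change -0.69, SE 0.19, adjusted p = 0.039), and mt-Nd1 passed without Aldara replicate 4 or Vehicle replicate 2 but not without any of the other 6 libraries (highest adjusted p = 0.107). By limma voom mt-Nd1 did not pass (adjusted p = 0.053). mt-Nd3 and mt-Nd4l, the small subunits, were counted at far lower levels. Means of mt-Nd3 were 7.48 ± 1.87 CPM in Vehicle and 6.58 ± 1.37 CPM in Aldara (SD, n = 4 each; log2 fold change -0.19, edgeR adjusted p = 0.627). Those of mt-Nd4l were 4.76 ± 1.13 and 4.15 ± 0.999 CPM (log2 fold change -0.20, edgeR adjusted p = 0.645).

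Complex II, succinate dehydrogenase, also belongs to the citric acid cycle. None of its 4 genes passed, and the median log2 fold change was -0.08. Sdha, the flavin-binding catalytic subunit, was the only one of the 47 genes with a positive value (0.04, SE 0.08, adjusted p = 0.795). It was at 208, 216, 225 and 214 CPM in the Vehicle libraries and at 228, 216, 224 and 220 CPM in those of Aldara, and with upper-quartile scaling the sign turned (-0.02). Sdhc, a membrane anchor, had the smallest p of the complex (log2 fold change -0.16, SE 0.08, adjusted p = 0.237). Sdhd, the other anchor and the highest per length, averaged 65.7 CPM per kilobase in Vehicle and 62.2 in Aldara libraries (log2 fold change -0.08, adjusted p = 0.564).

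In complex III, 3 of 5 nuclear genes fell, beside 3.86% of all genes, and the median log2 fold change of the 5 was -0.33. The number that fell was 0 without Aldara replicate 3, and 1 or 2 without any other 1 library. Uqcrfs1, the Rieske iron-sulfur protein (chr13:30540308-30545362), was at 140, 121, 115 and 113 CPM in the Vehicle libraries and at 98.2, 94.2, 90.1 and 87.1 CPM in those of Aldara. All Aldara values lay below all Vehicle values, and Uqcrfs1 fell by 24.4% (log2 fold change -0.40, SE 0.09, adjusted p = 0.0173). It stayed past the threshold without any 1 library except Aldara replicate 3 (adjusted p = 0.0526). Cyc1, cytochrome c1 (chr15:76343523-76346260), was at 133, 111, 124 and 113 CPM in the Vehicle libraries and at 101, 88.7, 98.2 and 94.9 CPM in those of Aldara. The groups did not overlap (log2 fold change -0.33, SE 0.09, adjusted p = 0.0323). Cyc1 did not pass without Aldara replicate 2, 3 or 4 or Vehicle replicate 1 or 3 (highest adjusted p = 0.0882).

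Uqcrc2, a core protein of complex III (chr7:120635176-120659524), showed a small difference between groups with little spread. It was at 121, 117, 120 and 119 CPM in the Vehicle libraries and at 103, 97.6, 102 and 99.7 CPM in those of Aldara, with no overlap (log2 fold change -0.24, SE 0.07, adjusted p = 0.0473). It did not pass when any 1 library was left out (highest adjusted p = 0.114), nor without the filter on low counts. Of the 50-base windows of its transcript, 24.8% are shared with the neighbouring gene Pdzd9. Of the other nuclear members, Uqcrb had a log2 fold change of -0.39 (SE 0.19, adjusted p = 0.213; -0.22 without Vehicle replicate 3) and Uqcrc1 one of -0.06 (SE 0.09, adjusted p = 0.72). mt-Cytb (chrM:14145-15288, plus strand), cytochrome b and the only mitochondrial gene of the complex, was at 2772, 1991, 3766 and 2739 CPM in the Vehicle libraries and at 1686, 1667, 1535 and 2029 CPM in those of Aldara. Vehicle replicate 2 lay just under Aldara replicate 4, and mt-Cytb fell by 38.6% (log2 fold change -0.70, SE 0.18, adjusted p = 0.03). It did not pass without Aldara replicate 2 or 3 or Vehicle replicate 1, 3 or 4 (highest adjusted p = 0.0894).

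Cytochrome c carries electrons from complex III to complex IV, and its gene Cycs was at 58.7, 48.1, 67.5 and 48.9 CPM in the Vehicle libraries and at 45, 37.7, 40.8 and 50.1 CPM in those of Aldara. The groups overlapped through Aldara replicate 4, and Cycs did not pass (log2 fold change -0.36, SE 0.13, adjusted p = 0.0949). Its transcript shares 28.5% of its 50-base windows (877) with 76 other annotated genes, and 847 of these windows are found in Gm10053.

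Complex IV, cytochrome c oxidase, reduces oxygen. Ndufa4, named for complex I but found in complex IV, is counted here. None of the 8 nuclear genes of complex IV passed in the reported fit. A negative value at an unadjusted edgeR p under 0.05 was found for 7 of the 8, and for 11.7% of all genes. Their median log2 fold change was -0.31. Cox7a2, with the smallest p, was at 68.8, 56.8, 70.7 and 55.5 CPM in the Vehicle libraries and at 46, 44.5, 54.6 and 50.9 CPM in those of Aldara, which did not overlap (log2 fold change -0.36, SE 0.11, adjusted p = 0.0531; with the replicate block 0.0279). Cox8a, the highest of the nuclear members per length, averaged 291 CPM per kilobase in Vehicle and 227 in Aldara libraries (log2 fold change -0.36, SE 0.11, adjusted p = 0.0574; with the replicate block 0.0176). With the block, Cox5b, Cox6a1 and Cox6c passed as well (adjusted p = 0.046, 0.0449 and 0.0339), so that 5 of the 8 fell, beside 6.14% of all genes. By DESeq2 4 of the 8 fell, beside 7.11% of all genes. With upper-quartile factors 3 fell (5.9% of all genes), as without the filter on low counts (693 of 31704 genes). Cox4i1 was among those that fell by DESeq2 (adjusted p = 0.029) and with upper-quartile factors (0.047).

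mt-Co1 (chrM:5328-6872, plus strand), the catalytic subunit of complex IV, had the highest CPM of the 47 genes. It was at 6591, 5150, 7971 and 6922 CPM in the Vehicle libraries and at 3982, 4386, 4098 and 5304 CPM in those of Aldara. Vehicle replicate 2 lay under Aldara replicate 4, and mt-Co1 fell by 33.3% (log2 fold change -0.58, SE 0.16, adjusted p = 0.0365). It passed without Aldara replicate 4 or Vehicle replicate 2 but not without any of the other 6 libraries (highest adjusted p = 0.103). mt-Co2 and mt-Co3, the other core subunits, did not pass. mt-Co2 averaged 59.2 ± 10 CPM in Vehicle and 49.5 ± 7.55 CPM in Aldara (SD, n = 4 each; log2 fold change -0.26, edgeR adjusted p = 0.27). mt-Co3 averaged 40 ± 8 and 32.7 ± 5.11 CPM (log2 fold change -0.29, edgeR adjusted p = 0.255).

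Of 6 nuclear genes of ATP synthase 1 fell, beside 3.86% of all genes, and the median of the 6 was -0.28. Atp5b, the catalytic beta subunit (chr10:128083273-128090391), was at 1030, 894, 971 and 922 CPM in the Vehicle libraries and at 756, 700, 758 and 761 CPM in those of Aldara. The groups were well apart (log2 fold change -0.36, SE 0.09, adjusted p = 0.0342). No fit that left out a library kept Atp5b past the threshold (highest adjusted p = 0.0902). Atp5c1, Atp5d and Atp5j, the gamma and delta subunits and a coupling factor, passed with the replicate block (adjusted p = 0.0433, 0.0322 and 0.041; without it 0.11, 0.0736 and 0.102), and Atp5d also by DESeq2 (adjusted p = 0.0277) and with upper-quartile factors (0.0338). The mitochondrial subunits mt-Atp6, which forms part of the proton channel, and mt-Atp8 had log2 fold changes of -0.11 (SE 0.21, adjusted p = 0.79) and -0.09 (SE 0.40, adjusted p = 0.92). mt-Atp8 was at 0.281 to 0.931 CPM, so a difference of the size seen in mt-Nd6 was not detectable at its depth.

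**Figure D3:**
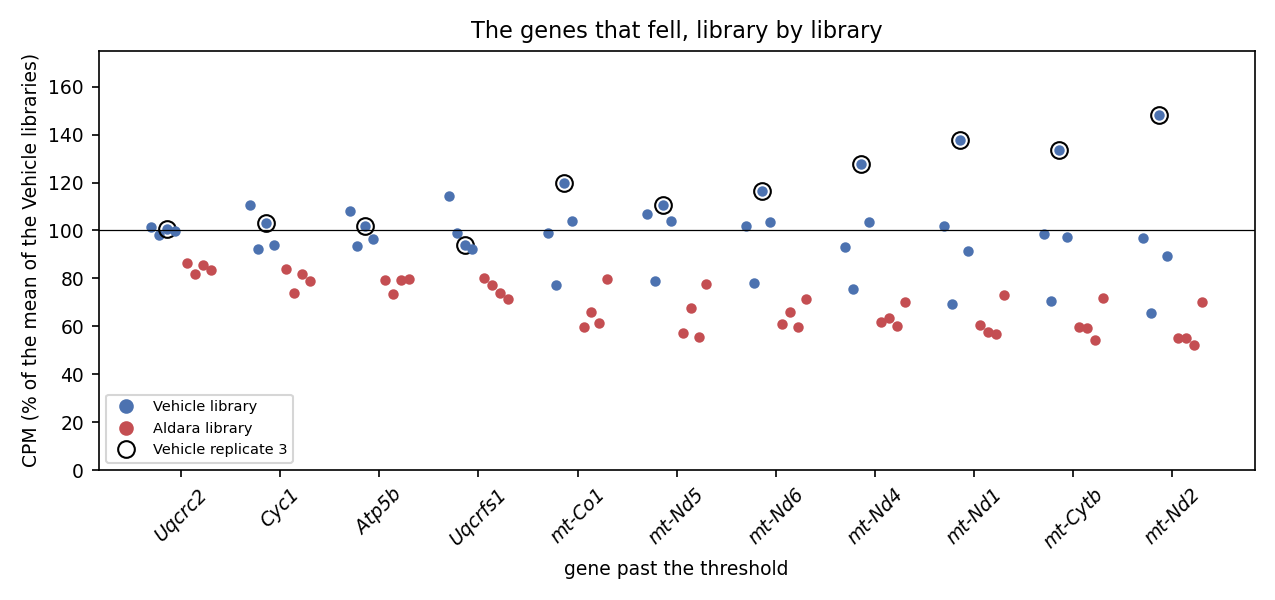
CPM of the 11 genes that fell, each library as a percentage of the mean of the 4 Vehicle libraries; Vehicle replicate 3 is ringed. The 4 nuclear genes have tight groups, whereas Vehicle libraries of mt-Nd2 spread from 858 to 1935 CPM.

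Of the 13 mitochondrial genes, the 6 that did not pass were also the 6 counted at the lowest level per length. In Vehicle libraries mt-Nd6 averaged 690 CPM per kilobase and mt-Co1 4310, whereas mt-Co2 averaged 86.5, mt-Co3 51, mt-Atp6 41.5, mt-Nd3 21.5, mt-Nd4l 16 and mt-Atp8 2.99. The transcripts of mt-Co2, mt-Co3, mt-Atp6, mt-Nd4l and mt-Nd3 share 100%, 99.9%, 99.5%, 98.8% and 98% of their 50-base windows with another annotated transcript, as the mt-Nd3 pair shown above does. Their copies lie on chromosome 1. Over the aligned bases Gm28661 matched mt-Co2, Gm28437 matched mt-Co3, Gm10925 matched mt-Atp6 and Gm10222 matched mt-Nd4l without a mismatch, and Gm28438 differed from mt-Nd3 at 1 of 345 bases.

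The share was 62.2% for mt-Nd4, 51.1% for mt-Co1, 8.19% for mt-Nd2, 7.61% for mt-Nd5, and 0 for mt-Nd1, mt-Nd6, mt-Cytb and mt-Atp8, the last of which overlaps mt-Atp6 as printed above. Only annotated transcripts were searched, so a share of 0 does not mean that a gene, for example mt-Atp8, has no nuclear copy. Among the 5 genes with over 90% of windows shared, 0 fell and the median log2 fold change was -0.20. Among the other 8, 7 fell and the median was -0.64, while 3.86% of all genes fell. When 1 library was left out, 0 of the 5 fell, and their median ran from -0.38 (without Aldara replicate 4) to -0.12 (without Aldara replicate 3) and was -0.32 without Vehicle replicate 3. Of the other 8, 1 fell without Aldara replicate 3 or Vehicle replicate 4, 2 without Aldara replicate 2 or Vehicle replicate 1, 3 without Vehicle replicate 3, 4 without Aldara replicate 1, and 6 or 7 without Aldara replicate 4 or Vehicle replicate 2, with medians from -0.75 to -0.52, the last without Vehicle replicate 3. The limit of 90% was chosen after the shares and the calls were seen. At a limit of 50% the counts were 2 of 7 and 5 of 6, with medians of -0.26 and -0.66. The copies themselves had counts, Gm28661 at 43.5 ± 7.93 CPM and Gm10925 at 26.9 ± 7.44 CPM in Vehicle (SD, n = 4 each). How the reads of these genes and their copies were assigned is not given in the sources used here, and its part in the differences was not tested.

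**Figure D4:**
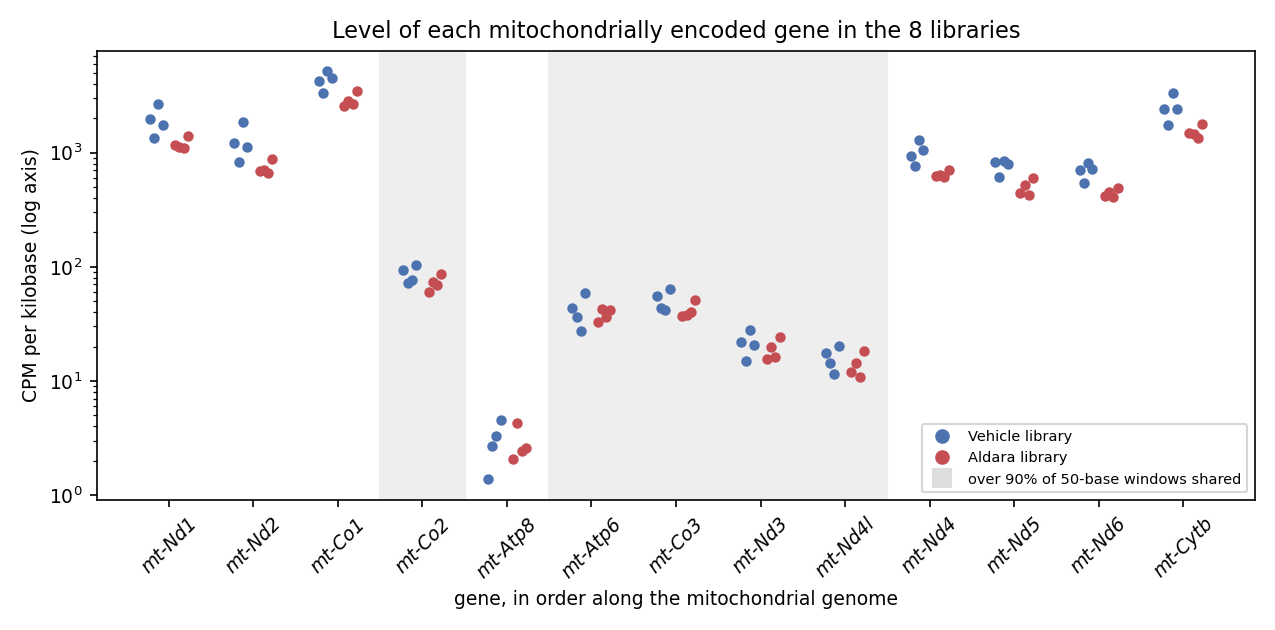
CPM per kilobase (log axis) of the 13 mitochondrial genes in each library, in their order along the genome; grey marks genes with over 90% of 50-base windows shared with another annotated transcript. The grey genes and mt-Atp8 lie below the other 7 genes in every library.

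Vehicle replicate 3 was the highest of the 8 libraries for 26 of the 47 genes, and Aldara replicate 2 the lowest for 22. Without Vehicle replicate 3 the median log2 fold change was -0.20 for nuclear and -0.49 for mitochondrially encoded genes, and 46 of 47 values stayed below 0. Short genes as a class were higher in that library: protein-coding genes with under 1000 bases of exon lay 0.29 (median log2) above the rest of their group. Over the other libraries this value ran from -0.16 in Aldara replicate 2 to 0.18 in Aldara replicate 3, so it varied in both groups. The median log2 fold change of such short genes was -0.19 over 301 genes, and that of the 7 nuclear members of this length was -0.36; without Vehicle replicate 3 these were -0.12 and -0.25. Between 2000 and 4000 bases, where 14 nuclear members lie, the medians were -0.02 over 4286 genes and -0.20 over the members. Of protein-coding genes at 200 CPM or more, 7.89% fell. The parts of length, level and Vehicle replicate 3 in the members' values were not tested. Members with an NRF1 core in the promoter had log2 fold changes from -0.28 to 0.04. Of these 6, 0 fell, beside 4 of the 34 nuclear members and 3.86% of all genes. With the replicate block 2 of the 6 fell, Cox6a1 and Atp5c1 (adjusted p = 0.0449 and 0.0433), beside 12 of the 34 and 6.14% of all genes. The 34 include 10 members for which no promoter was found, so they were not searched for the core. The promoters of Uqcrfs1 and Atp5b held none of the 3 motifs, and for Uqcrc2 and Cyc1, which also fell, no promoter was found. The part of the motifs in the members' values was not tested.

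Other subunits of the same complexes had medians between -0.34 and -0.25, or between -0.24 and -0.13 without Vehicle replicate 3, with few genes past the threshold. Values were below 0 for 26 of 27 further complex I, 4 of 4 complex III, 4 of 4 complex IV and 11 of 11 ATP synthase genes. Beside these and the lists below, 3.86% of all genes fell, or 6.14% with the replicate block. Of 27 further complex I subunits 2 fell and 0 rose, with a median log2 fold change of -0.25. Ndufa7 fell from 111 ± 14.6 to 79.6 ± 5.62 CPM (SD, n = 4 each; log2 fold change -0.48, edgeR adjusted p = 0.0151). Ndufab1, the mitochondrial acyl carrier protein, fell too (log2 fold change -0.45, edgeR adjusted p = 0.0239), and with the replicate block 6 of the 27 fell. Ndufb11, an abundant subunit among the rest, had a log2 fold change of -0.22. Of 4 further complex III genes 0 fell, and 3 with the block; Uqcrh and Uqcrq each had a log2 fold change of -0.26. Of 4 further complex IV genes 0 fell, and 1 with the block; Cox6b1 was at -0.24 and Cox7a2l at -0.05. Of 11 further ATP synthase genes 1 fell, and 3 with the block. It was Atp5g1, which encodes the ring subunit c as Atp5g3 does (log2 fold changes -0.47 and -0.40, edgeR adjusted p = 0.0108 and 0.0627), while Atp5f1 was at -0.27.

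Tissue-specific isoforms were near the limit of detection. Cox6b2, a testis isoform, had a log2 fold change of -0.91 (adjusted p = 0.0573; with the replicate block 0.0445), Cox7a1, the muscle isoform, one of 0.42 (adjusted p = 0.215), Ndufa4l2 one of -0.61 (adjusted p = 0.269) and Cox4i2 one of -0.66 (adjusted p = 0.486). All 4 averaged under 4 CPM, and 6 other isoforms of the list were not tested because of low counts.

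Lists of genes that build and maintain the chain had medians between -0.13 and 0.06, and between -0.08 and 0.01 without Vehicle replicate 3. Values were below 0 for 73 of 79 mitochondrial ribosomal proteins and 34 of 48 assembly factors, or 59 and 30 without Vehicle replicate 3. They were below 0 for 17 of 28 genes of mitochondrial DNA expression and 4 of 11 regulators of biogenesis, beside 49.1% of all genes. Of 48 assembly factors 0 fell and 0 rose by edgeR (6 at an unadjusted p under 0.05, against 26.1% of all genes in either direction; 3 fell by DESeq2, and 2 by edgeR without Vehicle replicate 4), with a median of -0.12; Coa5 was at 0.05 and Higd2a at -0.25. Of 28 genes for replication, transcription and processing of mitochondrial DNA, 1 fell, with a median of -0.03. It was Twnk, the helicase of mitochondrial DNA (log2 fold change -0.51, adjusted p = 0.0473), and Polg, the polymerase, was at -0.01. Of 11 regulators of mitochondrial biogenesis 0 passed by edgeR or DESeq2 (3 at an unadjusted p under 0.05, beside the same 26.1%), with a median of 0.06 that was -0.02 without Aldara replicate 4; Yy1 was at 0.07 and Pprc1 at 0.10. Of 79 mitochondrial ribosomal proteins 1 fell, Mrpl52 (log2 fold change -0.49, adjusted p = 0.0252), and 3 with the block, with a median of -0.13; without Vehicle replicate 3 the count was 0 and the median -0.08.

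Both ribosomal RNAs of the organelle had negative log2 fold changes, and 1 passed. mt-Rnr1 was at 159, 117, 239 and 174 CPM in the Vehicle libraries and at 88.4, 74.5, 93.2 and 115 CPM in those of Aldara, just short of overlapping. It fell by 46.1% (log2 fold change -0.89, SE 0.21, adjusted p = 0.025). mt-Rnr2 had a log2 fold change of -0.69 (SE 0.20, adjusted p = 0.057; with the replicate block 0.0128). Of 11 mitochondrial tRNA genes tested 1 fell, mt-Tp (log2 fold change -0.99, adjusted p = 0.00627), and poly-A enrichment and the overlap of such genes with messenger RNAs limit what these counts hold.

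Among neighbouring pathways, 5 of 18 citric acid cycle genes fell and 0 rose, with a median of -0.19. Beside this and the other pathways here, 3.86% of all genes fell and 6.98% rose. The number that fell was 1 without Vehicle replicate 1, 2 without Aldara replicate 2 or 3, 3 without Aldara replicate 4 or Vehicle replicate 2 or 4, and 4 without Aldara replicate 1 or Vehicle replicate 3. Pcx, pyruvate carboxylase, which feeds the cycle, was at 97.7, 70.6, 58.1 and 58.2 CPM in the Vehicle libraries and at 24.2, 36.1, 35.3 and 23.8 CPM in those of Aldara. The groups were well apart, and Pcx fell by 58% (log2 fold change -1.25, SE 0.21, adjusted p = 0.00664). Suclg1, a subunit of succinate-CoA ligase, and Idh3a, of isocitrate dehydrogenase, fell as well (log2 fold changes -0.42 and -0.38, adjusted p = 0.0177 and 0.0224), while Ogdh was at -0.09. Of 11 carriers and uncoupling proteins 1 fell, Vdac1, the outer membrane channel (log2 fold change -0.42, SE 0.08, adjusted p = 0.0118), and 3 with the block. Ucp2, a carrier of the inner membrane, was at 603 ± 35.5 CPM in Vehicle and 812 ± 174 CPM in Aldara (SD, n = 4 each) and did not pass (log2 fold change 0.43, edgeR adjusted p = 0.0802; by DESeq2 0.0466). Of 6 mitochondrial antioxidant genes 1 fell, Prdx3, a peroxiredoxin of the matrix (log2 fold change -0.34, adjusted p = 0.0209), and 2 with the block, with Gpx4 at 0.01.

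Of the 12 genes outside the 47 that are named here as fallen, Ndufa7, Atp5g1, Pcx, Vdac1 and mt-Tp stayed past the threshold whichever library was left out, with highest adjusted p of 0.0451, 0.033, 0.0246, 0.0371 and 0.0199. Idh3a was lost without Aldara replicate 3 or Vehicle replicate 1 (highest adjusted p = 0.0635), and Suclg1 and Prdx3 without Aldara replicate 2 or Vehicle replicate 1 (0.0505 and 0.0604). Ndufab1 was lost without Aldara replicate 2 or 4 or Vehicle replicate 2 (0.065), mt-Rnr1 without Aldara replicate 2 or 3 or Vehicle replicate 1 or 4 (0.0733), and Mrpl52 without Aldara replicate 2 or 3 or Vehicle replicate 1 or 3 (0.0757). Twnk, the helicase, passed without Aldara replicate 4 or Vehicle replicate 3 but not without any of the other 6 libraries (0.125).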

How the data were processed

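The authors deposited raw counts per gene in 1 table covering the 8 libraries. Per the labels' protocols, poly-A enriched RNA was amplified with a SMARTer kit; reads were processed with HISAT2 (2.0.5), featureCounts (1.5.0-p3) and DESeq2 on mm10, per the submitters' processing notes. Neither read length nor the options for counting appear in the sources used here. Symbols, exon lengths and coordinates came from GENCODE M21 (GRCm38), which named 91.8% of the rows; some identifiers are newer, so coordinates are the annotation's.

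Counts were tested with edgeR 4.0.16 in R 4.3.3 (filterByExpr, TMM factors of 0.957 to 1.035, robust quasi-likelihood test, Benjamini-Hochberg adjustment over 16780 genes, threshold 0.05), and all adjusted p-values are from this test unless another is named. The procedure was tested on simulated data with planted changes larger than that of any member, so this test does not bear on changes of the members' size. CPM are TMM-scaled. Same-numbered libraries deviated together (r = 0.228, 0.108, 0.167 and 0.218 over genes), so the replicate number was used as a block in an alternative fit. Alternatives also covered other scalings, no filter, DESeq2 1.42.0, limma 3.58.1 voom and leaving out each library. No 2 libraries of a group agreed within sampling noise (smallest chi-square per degree of freedom 18.2).

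Named genes are all 13 mitochondrial members, all nuclear members past the threshold, per complex the smallest p and the highest level per length, and of each other list up to 3 past the threshold and the 2 most abundant of the rest; genes outside this rule were named after their values were seen. Some genes that the rule names are not reported here. Members and lists were chosen with earlier results of these data known; the windows, motifs, length classes and level classes were added after the counts were seen.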

Additional observations from a re-analysis of the deposited data

Results flagged for a closer look

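In 94 groups of 4 libraries, 4 held a library far from the other 3 relative to the range of the group; chance gives about 1 in 20. Vehicle replicate 3 was the highest for Sdhc, at 109 CPM. Aldara replicate 2 was the lowest for Atp5b, at 700 CPM. Vehicle replicate 1 was the highest for Atp5d, at 253 CPM. Aldara replicate 4 was the highest of its group for mt-Nd2, at 915 CPM.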

How the results depend on the processing

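The number of respiratory chain genes that fell was 11 in the reported fit, 18 with the replicate block, and 1 to 9 when 1 library was left out; it was 9 to 16 under the other alternatives, and 0 rose under any of them. With the block, 10 of the 11 genes were kept and mt-Nd2 was lost. Limma voom lost mt-Nd1 and mt-Nd2, and the fit without the filter on low counts lost Uqcrc2 and mt-Nd2. Over the 15 alternatives, 44 of the 47 genes stayed below 0 in log2 fold change. The exceptions were Sdha, at 0.04 in the reported fit and -0.02 with upper-quartile scaling, mt-Atp6, from -0.27 (without Vehicle replicate 3) to 0.11 (without Vehicle replicate 4), and mt-Atp8, from -0.37 (without Aldara replicate 2) to 0.18 (without Vehicle replicate 4), with 0.03 without Aldara replicate 1. The cause was not tested. Upper-quartile scaling moved the share of rising genes among all calls from 64.4% to 49.7%, and the median of all genes from 0.01 to -0.05. Depth limits mt-Atp8, with under 1 CPM in every library.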
